A study of Homo sapiens with 8 samples.

Results

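The 37 genes described here carry proteins into the endoplasmic reticulum (ER), cut off their signal peptides and attach and trim their N-linked sugars. They were taken by name, with earlier results of these data known, so the shares below describe a chosen list. They cover the receptor of the signal recognition particle (SRPR, now named SRPRA, and SRPRB) and the Sec61 channel with Sec62 and Sec63. The translocon-associated protein complex (SSR1 to SSR4), signal peptidase and the oligosaccharyltransferase follow. The rest belong to the hexosamine pathway and the assembly of the lipid-linked oligosaccharide, or are enzymes of glucose trimming. Of these 37 genes, 35 had a probe set assigned to 1 gene symbol, with 77 probe sets among them, and all 35 were bright enough to be tested among 12093 genes. SEC61G and PGM3 had no such probe set and are only named. RNA came from 4 established human kidney cancer lines (ACHN, A498, CAKI1, CAKI2), all labelled ccRCC, the clear cell type of renal carcinoma. From each line 1 array holds cells treated over 24 h with A939572 at 75 nM, which blocks the fatty acid desaturase SCD1. The matching array holds cells of that line that received DMSO only. Both groups were kept in serum-supplemented medium, and a cell line in culture has none of the other cell types of a tumour. The labels do not name separate cultures within a line, so p-values rest on the spread between these 4 lines. In the limma fit this spread is moderated with that of all genes tested.

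As background, a ribosome making a secreted or membrane protein is brought to the ER by the signal recognition particle and its receptor, and the growing chain passes through the Sec61 channel. Signal peptidase removes the leading peptide, and the oligosaccharyltransferase moves a preassembled sugar tree from the lipid dolichol onto asparagine residues. The sugar tree is built from nucleotide sugars, among them the UDP-N-acetylglucosamine that the hexosamine pathway supplies. Many genes of this route are known targets of the unfolded protein response, in which the transcription factors XBP1 and ATF6 raise the capacity of the ER.

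Most of these genes had higher transcript levels with A939572 than with DMSO. Of the 35 genes tested, 22 (62.9%) rose and 0 fell (limma, Benjamini-Hochberg adjusted p below 0.05 over all 12093 genes), against 14.7% of all genes called higher and 15.9% called lower. With arrays centred on their medians instead, 22 of the 35 also rose, and the calls over all genes went from 1778 higher and 1927 lower to 2163 higher and 1544 lower. The median log2 difference, A939572 minus DMSO, was 0.54 for the 35 genes, a 1.46-fold change, and -0.03 for all genes tested. Called or not, 24 of the 35 genes were higher in all 4 lines, and 2748 of all 12093. The 22 called genes were higher in 4 of 4 lines, which a call in a fit blocked by line favours. MOGS was higher by only 0.002 in CAKI2 and SSR1 by 0.02 in CAKI1. The 22 ranged from 1.25-fold for SEC62 to 2.84-fold for GFPT1. A change of at least 2-fold was seen in 7 of them (31.8%), and in 25% of all genes called higher. In 11 of the 35 genes (31.4%) the lowest normalized level of the treated arrays lay above the highest of the DMSO arrays, which held for 4.63% of all genes tested. For SSR1 and MOGS this held after normalization but not for the signals as deposited. The genes are bright: their median level was 12.54 on the log2 scale against 9.44 for all genes tested. Among the 2247 genes at or above 11.43, the lower quartile of the 35, 22% were called higher. Without the cell line as a block, 1 of the 22 calls, that of SEC11C, was kept.

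**Figure D1:**
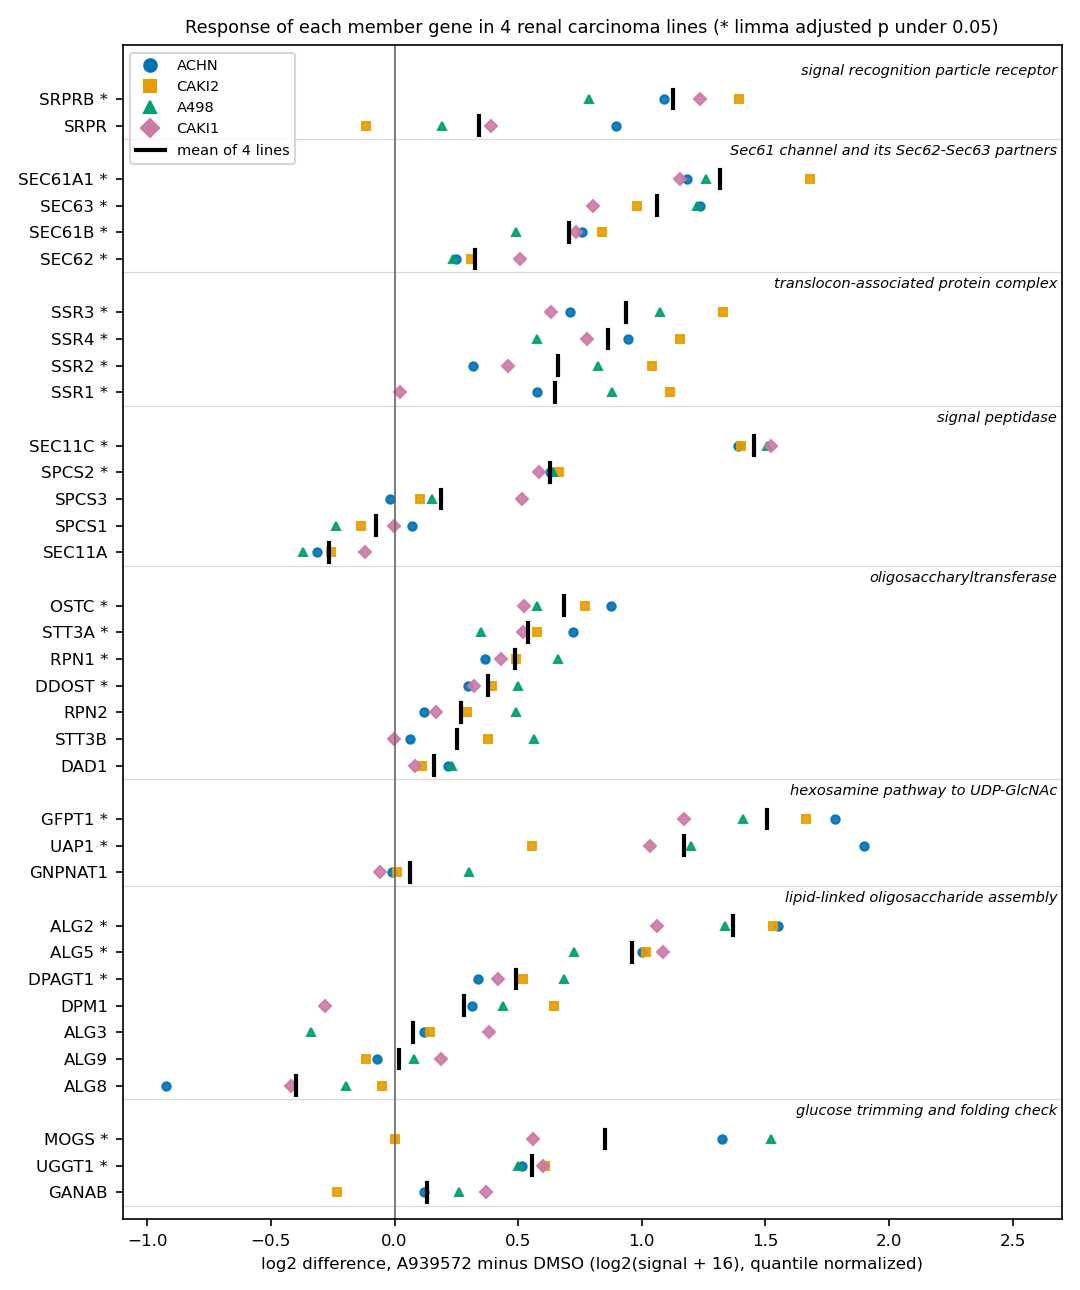
Log2 difference of each measured member gene, A939572 minus DMSO (horizontal axis), in each of 4 lines (coloured points) with the mean of the lines (black bar); genes are grouped by role and an asterisk marks a limma adjusted p below 0.05. The means of GFPT1 (1.51), SEC11C (1.46), ALG2 (1.37) and SEC61A1 (1.32) lie farthest to the right, while SEC11A and ALG8 lie below 0 in all 4.

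The promoters of the genes were read because so many of them rose together. RefSeq start sites on GRCh38.p14 were available for 32 of the 37 genes, and the 250 bases before each start were searched on both strands. The ER stress element (CCAAT and CCACG separated by 9 bases) was found in 0 of the 32, against 0.121% of the promoters of tested genes, and the element known as ERSE-II (ATTGG and CCACG separated by 1 base) in 0 against 0.111%. The letters ACGTGG, the core that XBP1 is known to bind, were found in 11 of the 32 (34.4%), 9 of them among the 20 called genes with a promoter. They were found in 11.3% of the promoters of all tested genes, in 13.9% of those of genes called higher, and in 9.35% of all coding promoters. The longer UPRE, TGACGTGG, which contains that core, was found in 1 of the 32, SEC62, against 0.789% of tested genes. The amino acid response element bound by ATF4 (TGATG and AA separated by 1 base) was found in 1, SRPRB, against 1.51%. A match is a run of letters and not a measured binding site.

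The matches in 7 genes that rose and in GANAB, which did not pass, are shown on the strand of the gene, with up to 20 bases on each side, the match in capitals (CCACGT is the reverse complement of ACGTGG). They lie at chr2:69387382-69387427 (GFPT1, minus strand), chr18:59139823-59139868 (SEC11C, plus), chr6:107958255-107958300 (SEC63, minus), chr3:156555304-156555349 (SSR3, minus), chr6:7313261-7313306 (the nearer of the 2 matches of SSR1, minus), chr11:74949128-74949173 (SPCS2, plus), chr3:169966770-169966806 (SEC62, plus, the UPRE) and chr11:62646636-62646681 (GANAB, minus).
GFPT1: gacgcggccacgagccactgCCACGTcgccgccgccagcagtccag
SEC11C: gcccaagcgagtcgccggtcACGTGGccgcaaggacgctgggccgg
SEC63: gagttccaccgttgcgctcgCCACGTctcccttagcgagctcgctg
SSR3: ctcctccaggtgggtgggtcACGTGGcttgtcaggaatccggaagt
SSR1: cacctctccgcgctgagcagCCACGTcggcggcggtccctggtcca
SPCS2: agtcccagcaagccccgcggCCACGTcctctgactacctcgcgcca
SEC62: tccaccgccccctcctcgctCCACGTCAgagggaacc
GANAB: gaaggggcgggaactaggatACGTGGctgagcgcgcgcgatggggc
The match of SEC11C lies 41 to 36 bases before the start and that of GFPT1 180 to 175 bases before it. SEC61A1 and ALG2, also among the genes that rose most, had no match of these letters in this window. ALG2 and SEC61B are neighbours on chromosome 9, transcribed away from each other with 339 bases between them in GRCh38.p14, and both rose.

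In the receptor that docks the ribosome the membrane anchor rose, and the call of the other subunit depended on the probe set. SRPRB, the small subunit embedded in the ER membrane, rose by a log2 difference of 1.13 ± 0.26 (SD, n = 4 lines), a 2.18-fold change (limma adjusted p = 0.000379). In the order ACHN, CAKI2, A498, CAKI1, used for all signals that follow, its DMSO signals were 3595, 4390, 7428 and 2071, and its treated signals were 7779, 11050, 11901 and 4954. Each line was higher with A939572, although the levels of the lines differed enough for the groups to overlap. SRPR, the large subunit that binds the particle, had 0.34 ± 0.43 and did not pass (adjusted p = 0.173, with a 95% interval of -0.05 to 0.73). It was 0.90 in ACHN and -0.12 in CAKI2, and its dimmer probe set had 0.84 ± 0.35 and passed (adjusted p = 0.025). With the mean of its probe sets SRPR passed as well (0.59, limma adjusted p = 0.0301). Between the brightest probe sets of the subunits the difference within a line, 0.79 ± 0.55, had an exact two-sided sign-flip p of 0.125, the smallest that 4 pairs allow.

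All 4 measured genes of the Sec61 channel and its partners rose. SEC61A1, the pore itself, had signals of 2132, 1318, 3436.5 and 3170 in DMSO and 4855, 4323.5, 8016 and 7078 with A939572. The lowest treated array lay above the highest DMSO array, and the log2 difference was 1.32 ± 0.24, or 2.49-fold (adjusted p = 0.00027). SEC63, which recruits the chaperone BiP to the channel, rose by 1.06 ± 0.21, from signals between 2125 and 3139 to between 4692 and 7495, again without overlap (adjusted p = 0.000458). SEC61B, a small subunit of the channel, rose by 0.71 ± 0.15 (adjusted p = 0.000849). SEC62, which serves short precursors that arrive after translation, rose least, by 0.33 ± 0.13 (adjusted p = 0.0343). Its 5 probe sets did not agree: the 2 brightest had 0.33 and 0.50, the others -0.09, -0.02 and 0.15. Its call was lost when any 1 line was left out (adjusted p 0.0612 to 0.126) and with the mean of all its probe sets (0.17, adjusted p = 0.25).

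The translocon-associated protein complex, which sits beside the channel and helps weaker signal peptides to enter, moved as a whole. All 4 subunits rose: SSR3 by 0.94 ± 0.32 (adjusted p = 0.000836), SSR4 by 0.86 ± 0.25 (0.000846), SSR2 by 0.66 ± 0.33 (0.00465) and SSR1 by 0.65 ± 0.47 (0.0127). SSR3 had DMSO signals of 10277, 13227, 9376 and 12574 and treated signals of 16284, 27222, 17801 and 20024. In the brightest probe sets CAKI2 had the highest difference for each of the 4 subunits, from 1.04 to 1.33. In some other probe sets of SSR1 the highest line was ACHN (1.49) or A498 (1.45). SSR1 was nearly level in CAKI1 in its brightest probe set, at 0.02, yet its other 5 probe sets had 0.45 to 0.91 in that line and means of 0.73 to 1.11. The call of SSR1 was lost without CAKI2 (adjusted p = 0.0519) and without A498 (0.0546).

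Signal peptidase was split between its subunits. SEC11C, one of the alternative catalytic subunits, rose by 1.46 ± 0.07, or 2.74-fold, the smallest adjusted p of the 35 genes (0.000114). Its signals were 1509, 1970, 1559 and 1143 in DMSO and 3981, 5320, 4455 and 3433.5 with A939572, so the lowest treated array was well above the highest DMSO array. The dimmer probe set of SEC11C was also higher in 4 of 4 lines, but by 0.77 ± 0.45, with 0.11 in CAKI2. SEC11A, the other catalytic subunit, had -0.27 ± 0.11, below 0 in 4 of 4 lines, and did not pass (adjusted p = 0.0508). Its signals were 11792, 11792, 15331 and 14941 in DMSO and 9262.5, 9366, 10910 and 13931.5 with A939572, and its dimmer probe set had -0.26 ± 0.15. With a stricter filter on dim genes SEC11A passed as lower (adjusted p = 0.0453). The difference between the brightest probe sets of SEC11C and SEC11A was 1.72 ± 0.11, from 1.64 in CAKI1 to 1.88 in A498 (exact two-sided sign-flip p = 0.125, the smallest possible). SPCS2, an accessory subunit, rose by 0.63 ± 0.03 (adjusted p = 0.000933), with its lines between 0.58 and 0.67. In its probe set not marked as matching several transcripts SPCS2 had 0.64 ± 0.48 and did not pass (adjusted p = 0.106). That probe set was dim, with a mean level of 6.84 on the log2 scale beside 13.56 for the brightest. The remaining probe set of SPCS2, at 12.91, had 0.94 ± 0.10. SPCS1, an accessory subunit not needed for the cleavage itself, had -0.08 ± 0.14 (adjusted p = 0.585). SPCS3, an essential accessory subunit, had 0.19 ± 0.23 in its brightest probe set (adjusted p = 0.243), and its next probe set had 0.63 ± 0.38 and passed (0.0143).

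**Figure D2:**
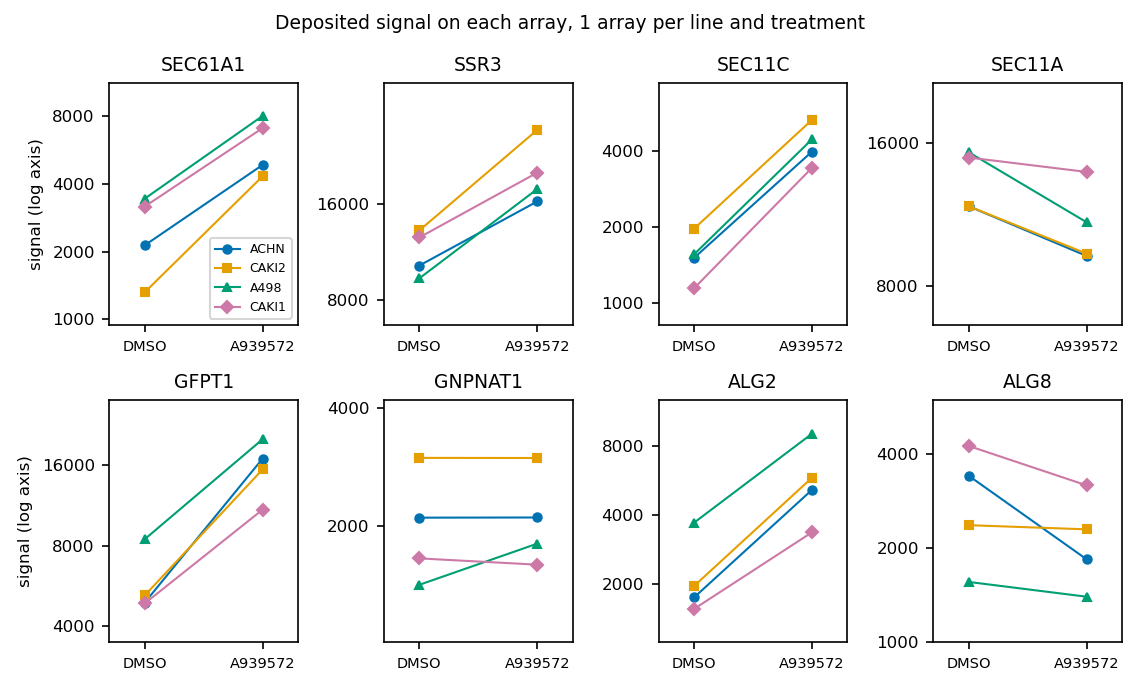
Deposited signal (vertical log axis, arbitrary intensity units) of 8 member genes on the DMSO and A939572 array of each line, joined by a line. SEC61A1, SSR3, SEC11C, GFPT1 and ALG2 climb in all 4 lines, SEC11A declines in all 4, GNPNAT1 is nearly flat in 3, and ALG8 falls most in ACHN.

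The oligosaccharyltransferase was mixed. Of 7 measured subunits 4 rose, with a median of 0.38. OSTC, which joins the enzyme to the channel, rose by 0.69 ± 0.16 (adjusted p = 0.00125), from DMSO signals of 6387, 7946, 10380 and 7454 to 11736, 13025, 14090 and 10620. STT3A, the catalytic subunit that works as the chain enters, rose by 0.54 ± 0.15 (adjusted p = 0.00562). STT3B, the catalytic subunit that completes missed sites afterwards, had 0.25 ± 0.27 (adjusted p = 0.125; 95% interval -0.01 to 0.51). STT3A minus STT3B within a line was 0.29 ± 0.39, from -0.21 in A498 to 0.66 in ACHN. The exact two-sided sign-flip p was 0.375, in a test that cannot go below 0.125 with 4 pairs. RPN1 rose by 0.49 ± 0.13 (adjusted p = 0.00678) and DDOST by 0.38 ± 0.09 (0.0132), both structural subunits, and DDOST lost its call without A498 (0.0544). RPN2 had 0.27 ± 0.17 (adjusted p = 0.0549) and DAD1, a small subunit needed for stability, had 0.16 ± 0.08 (0.214), though both were above 0 in 4 of 4 lines.

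The hexosamine pathway rose at its entry and its last step. GFPT1, the rate-limiting enzyme that makes glucosamine 6-phosphate, rose by 1.51 ± 0.27, or 2.84-fold (adjusted p = 0.000129). Its DMSO signals were 4899.5, 5211, 8466 and 4863 and its treated signals were 16986, 15471, 20074 and 10933. Every treated array was above every DMSO array, and the other 3 probe sets of GFPT1 had 1.14 to 1.72. UAP1, which makes UDP-N-acetylglucosamine itself, rose by 1.17 ± 0.56 (adjusted p = 0.00183). Its difference varied between lines, from 0.56 in CAKI2 (2045 to 3027 signal units) to 1.90 in ACHN (3824 to 14296.5). GNPNAT1, the acetyltransferase between them, had 0.06 ± 0.16 (adjusted p = 0.741; 95% interval -0.21 to 0.34), with 0.30 in A498 and -0.06 to 0.01 in the other lines.

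Assembly of the lipid-linked oligosaccharide was uneven along the pathway. DPAGT1, which starts the tree on dolichol, rose by 0.49 ± 0.15 (adjusted p = 0.0172). ALG2, a mannosyltransferase of the early steps on the cytosolic face, rose by 1.37 ± 0.23, or 2.58-fold (0.00023), with signals of 1748, 1961, 3708 and 1558 in DMSO and 5157, 5826, 9070 and 3365 with A939572. ALG5, which makes the dolichol-linked glucose donor, rose by 0.96 ± 0.16 (0.00047) without overlap of the groups. The mannosyltransferases ALG3 and ALG9, which act inside the ER, had 0.08 ± 0.30 (adjusted p = 0.767) and 0.02 ± 0.14 (0.932). ALG9 had 0.47 ± 0.18 in its dimmer probe set and passed there (0.0411). ALG8, which adds a late glucose, had the lowest value of the 35 genes, -0.40 ± 0.38, below 0 in 4 of 4 lines and -0.92 in ACHN, and did not pass (0.08). DPM1, the catalytic subunit of dolichol-phosphate mannose synthase, had 0.28 ± 0.40 (0.166), with -0.28 in CAKI1 and 0.32 to 0.64 in the other lines, and without CAKI1 it passed at 0.47 (0.0212). The call of DPAGT1 was lost without CAKI2 (adjusted p = 0.0557) or without A498 (0.0729).

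After transfer, glucosidases trim the tree and UGGT1 adds glucose back to chains that are not yet folded. UGGT1 rose by 0.56 ± 0.06 (adjusted p = 0.00478), from 2826, 1887, 2654 and 2410 signal units to 4091, 2898.5, 3811 and 3729, the lines lying between 0.50 and 0.61. MOGS, glucosidase I, rose by 0.85 ± 0.70 (0.0291), but unevenly. Its signal went from 240.7 to 617.6 in ACHN and from 231.8 to 658.1 in A498, and was 333.0 on both arrays of CAKI2. Its call was lost without ACHN (adjusted p = 0.112), without A498 (0.124) and with no filter on dim genes (0.0579). GANAB, the catalytic subunit of glucosidase II, had 0.13 ± 0.26 (0.52) and -0.06 ± 0.71 in its other probe set.

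The median difference over the 35 genes lay between 0.51 (CAKI1) and 0.56 (CAKI2 and A498), and 29 to 31 genes of a line were above 0. Over all 12093 genes the line medians were -0.04 to -0.01, and 5730 to 5975 genes of a line were above 0. Across the 35 genes, the differences of any 2 lines correlated at Pearson r = 0.69 to 0.84, against 0.52 to 0.59 across all 12093 genes. These correlations are over genes, which are not independent, and each line has its own DMSO array. Over the 22 called genes the median ran from 0.62 in CAKI1 to 0.91 in CAKI2, and over the translocon-associated subunits from 0.55 in CAKI1 to 1.13 in CAKI2. Among the 22 called genes CAKI2 had the highest difference for 9 and CAKI1 the lowest for 8. A498 had the highest DMSO level for 9 of the 22 and the lowest difference for 7. With 1 array per line and treatment, differences between lines were not tested.

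Most probe sets of a gene pointed the same way. Of the 77 probe sets 74 were above the filter on dim signals, and 67 of these had a mean difference above 0. The 74 include the brightest probe sets of the 35 genes, on which the calls rest, and up to 6 probe sets of 1 gene (SSR1). They are therefore not independent, and the share over all probe sets of the array is not given here. Of the 22 called genes 14 had several probe sets, and in 13 of the 14 each probe set above the filter was above 0, SEC62 being the exception. For ALG2, 1 of the 13, only the brightest probe set was above the filter. The other probe set of ALG2 had 0.62 ± 1.04, with -0.56 in ACHN.

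**Figure D3:**
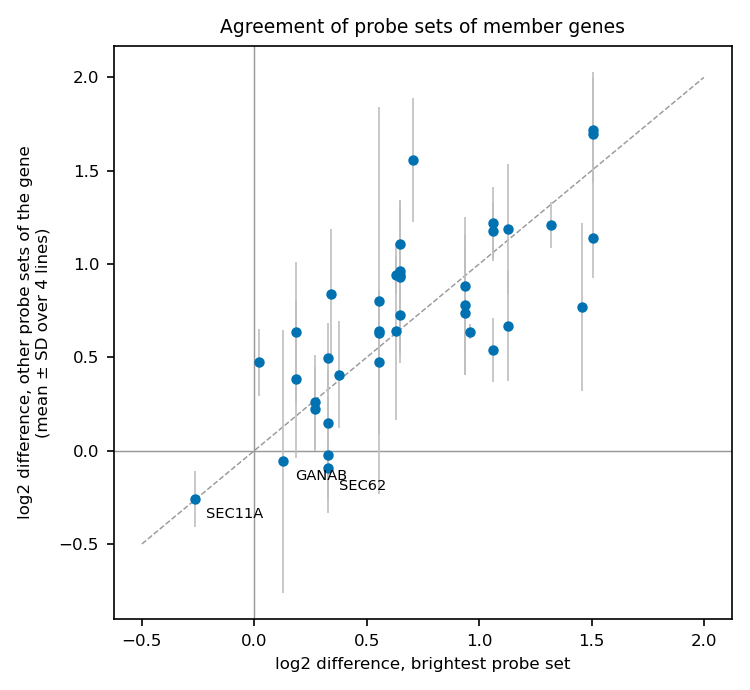
Mean log2 difference of each dimmer probe set above the filter (vertical axis, with the SD over 4 lines) against that of the brightest probe set of the same gene (horizontal axis); the dashed line marks equality. Most points lie above 0, and those of SEC62, GANAB and SEC11A that lie below 0 are named.

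Other genes of the pathway were taken from 9 further lists. Of their 90 genes 77 were tested, of which 23 rose (29.9%) and 13 fell, with a median of 0.12, beside 14.7% higher and 15.9% lower over all genes. With arrays centred on their medians 22 of the 23 and 8 of the 13 kept their calls, and with 1 line left out 13 to 19 of the 23 and 7 to 11 of the 13 did, fewest without A498 and without CAKI2. The signal recognition particle itself, which is cytosolic, was divided. SRP19 rose by 1.02 ± 0.19 (adjusted p = 0.000348), SRP68 by 0.69 ± 0.10 (0.00151) and SRP54, which binds the signal peptide, by 0.62 ± 0.15 (0.00352), and SRP72 rose as well, by 0.53 ± 0.25 (0.00789). SRP9 and SRP14, the pair that slows the ribosome, fell by 0.29 ± 0.12 (0.0297) and 0.39 ± 0.14 (0.0148). SRP9, SRP14 and SRP72 were named after their values were seen. Centring the arrays on their medians ended the calls of SRP9 (adjusted p = 0.0931) and SRP14 (0.0526), and neither passed without CAKI2 (0.123 and 0.0629). SRP9 also did not pass without ACHN (0.069) or A498 (0.0703). Of 8 further proteins linked to the translocon 6 rose and 1 fell, led by the ribosome-binding protein RRBP1 (0.95 ± 0.44), the cochaperone DNAJC1 (0.92 ± 0.35) and CCDC47 (0.50 ± 0.30). Of the 6 higher calls, 3 were kept without ACHN, 4 without CAKI2, 3 without A498 and 3 without CAKI1. RRBP1 did not pass when probe sets marked as matching several transcripts were left out (0.29, adjusted p = 0.344), and CCDC47 did not pass without ACHN, A498 or CAKI1 (0.0503 to 0.0879). TRAM2, named after its value was seen, was the gene that fell, by 0.46 ± 0.22, a call lost with arrays centred on their medians (0.0617) and without ACHN, CAKI2 or A498 (0.059 to 0.117). Of 16 genes of tail-anchored protein insertion and the ER membrane complex 2 rose, GET4 (0.67 ± 0.39) and EMC2 (0.66 ± 0.54), and GET1 fell by 0.72 ± 0.44, counts no higher than the shares over all genes. GET4 had -0.01 in its next probe set and did not pass without ACHN (0.0673) or A498 (0.069). EMC2 had 0.40 without CAKI2 (0.0708) and did not pass without A498 (0.0629).

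**Figure D4:**
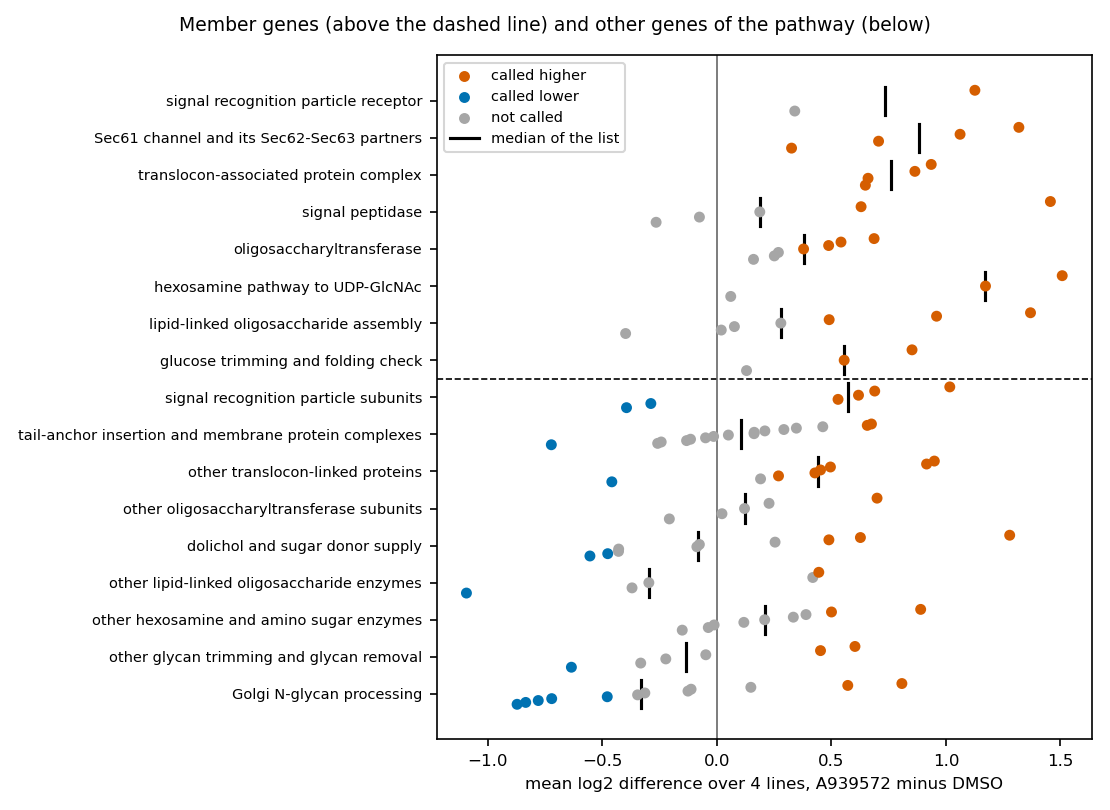
Mean log2 difference over 4 lines (horizontal axis) of each tested member gene by role (above the dashed line) and of other genes of the pathway by list (below), orange where called higher, blue where called lower and grey where not called, with the median of each list as a black bar. The bars of the Sec61 and translocon-associated groups stand at 0.88 and 0.76, that of Golgi N-glycan processing at -0.33.

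Within glycosylation, the genes outside the 37 went in several directions. Over all genes 14.7% were called higher and 15.9% lower, and none of these lists was tested as a group. Of 5 other oligosaccharyltransferase subunits MAGT1, an oxidoreductase subunit of the STT3B enzyme, rose by 0.70 ± 0.33 (adjusted p = 0.00395) and 0 fell. In the supply of dolichol and sugar donors 3 of 10 rose and 2 fell, DPM3 and MPDU1, the latter named after its value was seen. Neither kept its call with arrays centred on their medians (adjusted p = 0.0701 and 0.0544). MPDU1 also did not pass without ACHN (0.0757) or CAKI1 (0.0606). GMPPA, a regulator of GDP-mannose synthesis, rose by 1.28 ± 0.42 (0.001), and its treated signals of 966 to 1598 lay above the DMSO signals of 328 to 559. NUS1, a subunit of the enzyme that makes dolichol precursors, rose by 0.63 ± 0.38 (0.0143), a call lost without CAKI2 (0.054). DHDDS, named after its value was seen, rose by 0.49 (adjusted p = 0.047), a call lost without ACHN, CAKI2 or A498 (0.1045 to 0.182). In its next probe set DHDDS had 0.15 and did not pass (0.7615). DPM3, which anchors DPM1 in the membrane, fell by 0.55 ± 0.40 (0.0377), a call lost without CAKI2, A498 or CAKI1 (0.0711 to 0.159). ALG6, which adds the glucose before the one added by ALG8, fell by 1.09 ± 0.45 (0.00199), from 1387, 2277, 1776 and 1518 signal units to 402.5, 1313, 814 and 924. ALG13 rose by 0.44 ± 0.35 on the same list of 5 tested genes, a call that ended without ACHN, CAKI2, A498 or CAKI1 (0.0532 to 0.185). In its next probe set ALG13 had 0.15 and did not pass (0.47). Of 9 other hexosamine and amino sugar enzymes NANS, of sialic acid synthesis (0.89 ± 0.63), and OGT (0.50 ± 0.31), which puts N-acetylglucosamine on nuclear and cytosolic proteins, rose. OGT did not pass without CAKI2 (0.0667) or A498 (0.0692), and NANS had 0.32 (0.354) with the mean of all probe sets. Of 6 other genes of trimming and glycan removal UGGT2 (0.60 ± 0.28) and NGLY1 (0.45 ± 0.24) rose and PRKCSH, the partner of GANAB, fell by 0.64 ± 0.24. These 3 calls changed with the probe set or the line: PRKCSH had 0.22 and UGGT2 -0.22 in the next probe set, and NGLY1 did not pass without ACHN, CAKI2 or A498 (0.0904 to 0.109), nor UGGT2 (0.0614) or PRKCSH (0.052) without CAKI2.

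Of 12 tested Golgi enzymes, which remodel N-glycans later, 2 rose and 5 fell, with a median of -0.33. Over all genes 14.7% were higher and 15.9% lower, and the group itself was not tested. ST6GAL1, which adds sialic acid, fell by 0.87 ± 0.32 (adjusted p = 0.00576), and MGAT4B, a branching enzyme, fell by 0.83 ± 0.28 (0.00117). MGAT4B signals were 8213, 19013, 9322.5 and 16632 in DMSO and 5564, 8478, 5845 and 7784 with A939572. FUT8, which adds core fucose, fell by 0.78 ± 0.19 (0.00357), B4GALT1 by 0.72 ± 0.30 and MGAT5 by 0.48 ± 0.27. MGAT1, which opens the remodelling, rose by 0.81 ± 0.22 (0.00465), and MGAT2 by 0.57 ± 0.34. FUT8, B4GALT1, MGAT5 and MGAT2 were named after their values were seen. B4GALT1 had 0.33 in its next probe set, MGAT5 had 0.10 and MGAT2 -0.10 with the mean of all probe sets, and MGAT5 and MGAT2 did not pass without ACHN (0.079 and 0.0572) or A498 (0.112 and 0.0557), nor MGAT5 without CAKI2 (0.0914).

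Of 12 renal epithelial and renal carcinoma markers 11 were measured and 9 passed the filter of 6.41, with summed signals of 57802 to 90201 in DMSO and 55344 to 82375 with A939572. A large part of these sums came from VIM, with 35297 to 41430 in DMSO and 33034 to 44650 with A939572. KRT18 had 7362 to 21788 and 6900.5 to 17170. PAX8 lay between 11.97 and 13.02 on the log2 scale on all 8 arrays and rose by 0.38 ± 0.19 (adjusted p = 0.0294). CDH6 fell by 1.52 ± 1.25 (0.0196) and KRT19 by 0.97 ± 0.84 (0.0213). Not every line carried each marker: CDH6 was below the filter on both ACHN arrays and PAX2 on both CAKI1 arrays, EPCAM was 6.57 in CAKI2 and 6.71 in A498 with DMSO, and CDH16 and NDUFA4L2 did not reach the filter on average. Of the leukocyte markers 0 of 4 measured genes passed that filter, their summed signal reaching 121 in DMSO and 131 with A939572. Of 5 fibroblast markers 1 passed, COL1A1, with summed signals of 208 to 1408 in DMSO and 187 to 1036 with A939572, and of 4 endothelial markers 1 passed, with 170 to 509 and 170 to 358. Median signals were 71.2 to 84.2 units in DMSO and 68.6 to 76.3 with A939572, and the treated array had the lower median in each line. The control probe sets at both ends of ACTB, which gauge RNA and labelling quality, had a 3′/5′ ratio of 2.12 to 2.33 in DMSO and 3.01 to 4.21 with A939572, and those of GAPDH of 0.96 to 1.05 and 1.01 to 1.11. The part of this difference in the results above was not tested.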

How the data were processed

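The authors deposited 1 intensity signal per probe set for 8 arrays, on a linear scale, made from biotin-labelled cRNA per the labels' protocols. The sources used here name no summarization program. The arrays had been scaled to 1 level, as the values show: means trimmed by 2% at each end were 500.07 on all of them. Here, signals were transformed as log2(signal + 16) and quantile normalized without 62 control probe sets. An offset understates changes of dim genes. Probe sets with 1 symbol in the platform annotation (41091 of 54675) were assigned to genes, and 41037 of these took a current GRCh38.p14 symbol by Entrez ID. The probe set with the highest mean over 8 arrays stood for a gene, and genes with a mean at or above 6.41, the median probe set, were tested. Probe sets with several symbols (1801) or none (11721) were left out.

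A939572 was compared with DMSO with limma 3.58.1 in R 4.3.3 (lmFit, eBayes with a variance trend, two-sided, Benjamini-Hochberg), with the cell line as a block, as the series' design text sets each line against its own control. Deviations of the 2 arrays of a line correlated at 0.82 to 0.86, those of different lines at -0.03 at most. The number of arrays limits precision: the median SE was 0.17. Errors in the text are SDs over 4 lines. The fit was also run on simulated data, and the outcome is not reported here.

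The members and all gene lists were chosen with earlier results of these data known. Text names every member, and of each further list up to 3 called genes with the largest change; others are marked.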

Additional observations from a re-analysis of the deposited data

Results flagged for a closer look

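In 105 groups of 4 values (the DMSO levels, the treated levels and the log2 differences of 35 genes), 3 had an array standing apart from the other 3 by Dixon's ratio above 0.829. Chance alone gives about 1 such group in 20. SPCS1 had a treated level of 12.61 in A498, below the 13.30 to 13.38 of the other lines (log2 scale). GFPT1 had a DMSO level of 13.05 in A498, above the 12.21 to 12.32 of the others, and ALG5 a DMSO level of 12.25 in A498, above 11.72 to 11.78. All 3 are levels in A498, and none is a difference between treatments.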

How the results depend on the processing

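The count of 22 members that rose stayed between 17 and 23 in 13 of the 14 alternatives run over all 35 genes. In the next brightest probe set, which gave values for 19 members, 16 rose: 13 of the 13 called before and 3 others (SRPR, SPCS3 and ALG9). The exception among the 14 was the fit without cell line as a replicate block, with 1 member higher, and 38 genes higher and 29 lower of all tested. With a stricter filter (60th percentile) 1 member was lower. With the lines left out in turn 17 to 22 members rose. The median of the members was 0.63 with arrays centred on their medians, 0.59 with the mean of all probe sets, and 0.49 to 0.57 with a line left out. Centring shifted the median of all genes to 0.03 and the share of calls that were higher from 48% to 58.4%.

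Signs turned as follows. With the brightest probe set that is not marked as matching several transcripts, SEC62 had -0.093, GET4 -0.009, PRKCSH 0.22 and B4GALT1 0.33. In the next brightest probe set GANAB had -0.057, GET4 -0.009, SEC61A2 -0.14, PRKCSH 0.22, UGGT2 -0.22 and B4GALT1 0.33. With the mean of all probe sets MGAT2 had -0.098 and MGAT5 0.098. With a line left out GNPNAT1 ran from -0.0197 to 0.10, ALG3 from -0.0258 to 0.21 and ALG9 from -0.0366 to 0.0646, none of them called. The causes were not tested. Signal over background limits what dim probe sets can show, that of MOGS among them.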
